A study of Mus musculus with 4 samples.

Results

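The genes described here encode proteins that build and steer the spliceosome. They were chosen by name from the protein-coding genes of the deposited count table, as those beginning with Snrp, Lsm, Sf3a, Sf3b, Srsf, Hnrnp or Prpf, with a number after Lsm, Srsf and Prpf. The rule found 77 genes among 16485 protein-coding genes and 28443 genes in all. They fall into 24 Sm/LSm, 9 SF3, 11 SR, 20 hnRNP and 13 PRPF genes, and 3 further genes with matching names were left out because the table does not list them as protein coding.

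RNA was sequenced from mouse bone marrow-derived macrophages (BMDMs) that had been given RANKL, the cytokine that starts osteoclast differentiation, at 50 ng/ml for 1 day. By the paper's account, macrophage colony-stimulating factor (M-CSF) was present in the culture together with RANKL, for both genotypes. The cells came from 8-week-old mice, and the labels call them early osteoclasts. MYC-WT cells carried LysM cre alone, and MYC-deficient cells carried LysM cre with floxed MYC alleles (MYC f/f), so that the Cre driver, which is active in myeloid cells, was shared by both genotypes. Each genotype had 2 libraries, which the sources call biological replicates. The sources used here do not say whether marrow from several animals was pooled. The comparison asks how the RNA levels of splicing genes differ after 1 day of RANKL when MYC is deleted from myeloid cells.

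Introns are removed by the spliceosome, which assembles anew on each intron from small nuclear ribonucleoproteins (snRNPs) and many further proteins. Sm proteins form a ring around most spliceosomal snRNAs and LSm proteins a ring around U6 snRNA, SF3A and SF3B belong to the U2 snRNP that marks the branch point, and PRPF proteins act mainly in the tri-snRNP and in activation of the assembled complex. SR and hnRNP proteins bind pre-mRNA and shift splice site choice, often in opposite directions. MYC is a transcription factor that binds, together with MAX, the DNA motif CACGTG, called an E-box.

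The libraries held 27544806 to 35794698 counts, and 19096 to 20575 genes had a count. Myc itself fell from 230.4 and 249.9 CPM (counts per 1000000 total counts) in the MYC-WT libraries to 17.7 and 24.2 CPM in the MYC-deficient libraries, a log2 fold change of -3.49 (SE 0.20, adjusted p = 0.00711 by edgeR's quasi-likelihood test). The libraries therefore match their labels. The summed CPM of 7 macrophage markers was 3280 and 2783 in the MYC-WT libraries against 5057 and 4747 in the MYC-deficient libraries, with 4 of the 7 called higher. That of 8 early osteoclast markers was 1635 and 2371 against 1410 and 1462, with 3 of the 8 called lower. Against these directions, the macrophage marker Lyz2 was fitted lower (log2 fold change -0.42) and the osteoclast markers Dcstamp (0.37) and Mmp9 (0.49) higher, none of them called. Mmp9 measured 538 and 542 CPM in MYC-WT and 876 and 616 CPM in MYC-deficient libraries. Sums over 5 monocyte markers were 52.8 and 27.0 CPM against 256 and 152 CPM, with 2 called higher, and sums over 8 neutrophil markers were 102 and 44.6 CPM against 278 and 99.3 CPM. Lists for dendritic, B, T, erythroid, stromal and megakaryocyte cells summed to at most 7.63 CPM in any library, with Cd3e, Cd3d and Hba-a1 at 0 in all 4. Among them 2 of 6 dendritic cell markers, Cd209a and Ccl22, were called higher, and Col1a1 and Col1a2 had 98 and 70 counts in MYC-deficient replicate 1 and none in the other libraries. The part of these cell type differences in the results below was not tested, and in bulk RNA fewer cells of a type and less RNA per cell cannot be told apart. The summed level of 10 proliferation genes was 2877 and 2352 CPM in MYC-WT and 3497 and 2405 CPM in MYC-deficient libraries, ranges that overlap.

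Spliceosome genes as a set took a smaller share of the RNA in MYC-deficient cells, a sum that was not tested. The 77 genes took 1.522% and 1.493% of all counts from MYC-WT cells and 1.173% and 1.091% of those from MYC-deficient cells, that is 1.51% ± 0.0205 against 1.13% ± 0.058 (mean ± SD, n = 2 each). The MYC-deficient shares lay below both MYC-WT shares, and the ratio of the mean summed CPM over the 76 tested genes was 0.751. This held within each family, where the ratio was 0.729 for Sm/LSm, 0.772 for SF3, 0.725 for SR, 0.762 for hnRNP and 0.737 for PRPF genes. Srsf12, with 1 count in the 4 libraries together, was the gene not tested.

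Of the 76 tested genes, 12 were called lower in MYC-deficient cells and none higher, where a call required an adjusted p under 0.05 by edgeR's quasi-likelihood test with Benjamini-Hochberg adjustment over all 13436 tested genes and a fold over 1.5. That is 15.8% of the set, against 9.91% of all tested genes called lower and 6.06% called higher. At an unadjusted p under 0.05, 43 members were lower and 0 were higher, against 20.4% and 16.0% of all tested genes, and DESeq2 and edgeR's likelihood ratio test also called 0 higher. Without the fold threshold, 23 members passed in the lower direction, which is 30.3% against 12.0% of all tested genes. In 61 of the 76 both MYC-deficient libraries lay below both MYC-WT libraries in CPM, as they did in 35.9% of all tested genes, and in Lsm14a and Hnrnpul2 both lay above. The median log2 fold change was -0.37 over the members and -0.01 over all genes.

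The differences were widespread and mostly small. A log2 fold change of -0.25 or lower was fitted for 53 members, 69.7% of the set against 32.2% of all tested genes, and one of -0.5 or lower for 28, or 36.8% against 19.5%. At -0.75 or lower the shares were 10.5% and 11.4%, and at -1 or lower they were 3.95% and 7.29%. Most members are well expressed, and among the 55 with a mean of at least 50 CPM 11 were called lower, or 20.0%, against 11.2% of all protein-coding genes at that level.

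**Figure D1:**
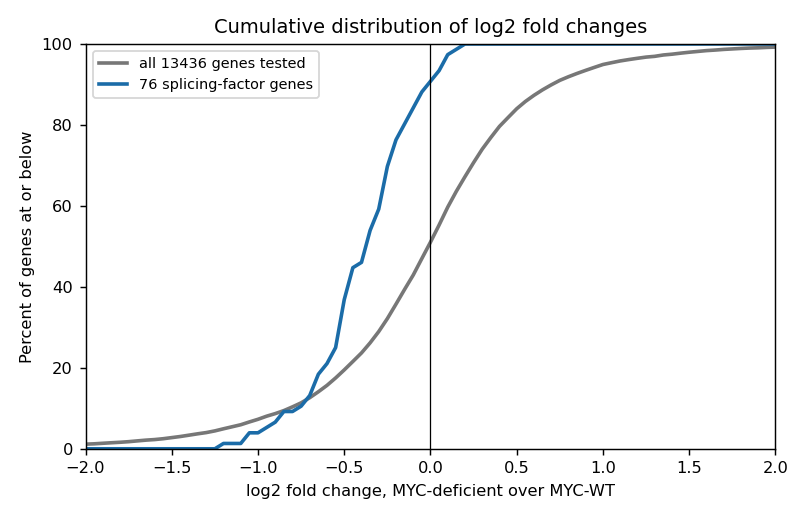
Cumulative share of genes (y axis, percent) at or below each log2 fold change of MYC-deficient over MYC-WT (x axis), for the 76 tested spliceosome genes and for all 13436 tested genes. The members' curve lies to the left for small decreases, with 69.7% against 32.2% at -0.25, and the curves are close at -0.75, where the shares are 10.5% and 11.4%.

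The 12 called genes were Snrpa1, Snrpd2, Snrpd3, Snrpd1 and Snrpa among the Sm/LSm genes, Sf3b3 and Sf3a2 of SF3, Hnrnpa1 and Hnrnpc, and Prpf31, Prpf19 and Prpf38a. In each of the 12 the MYC-deficient libraries did not overlap the MYC-WT libraries. The calls were made on these same libraries, so this separation is largely set by the selection and adds no support. Individual calls depended on single libraries, since each group has only 2. Without MYC-WT replicate 2 none of the 12 was called, with adjusted p from 0.0539 (Prpf31) to 0.162 (Prpf19), and 199 of all genes were then called lower in place of 1331. Without MYC-WT replicate 1, 7 of the 12 kept their call, and Prpf19, Prpf38a, Snrpd1, Snrpa and Hnrnpc had adjusted p from 0.0512 to 0.0922. Without MYC-deficient replicate 1, 9 kept it and Prpf19, Snrpd3 and Snrpa had adjusted p from 0.0622 to 0.0756. Without MYC-deficient replicate 2, 9 kept it and Prpf38a, Sf3a2 and Hnrnpc had adjusted p from 0.0563 to 0.0789.

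**Figure D2:**
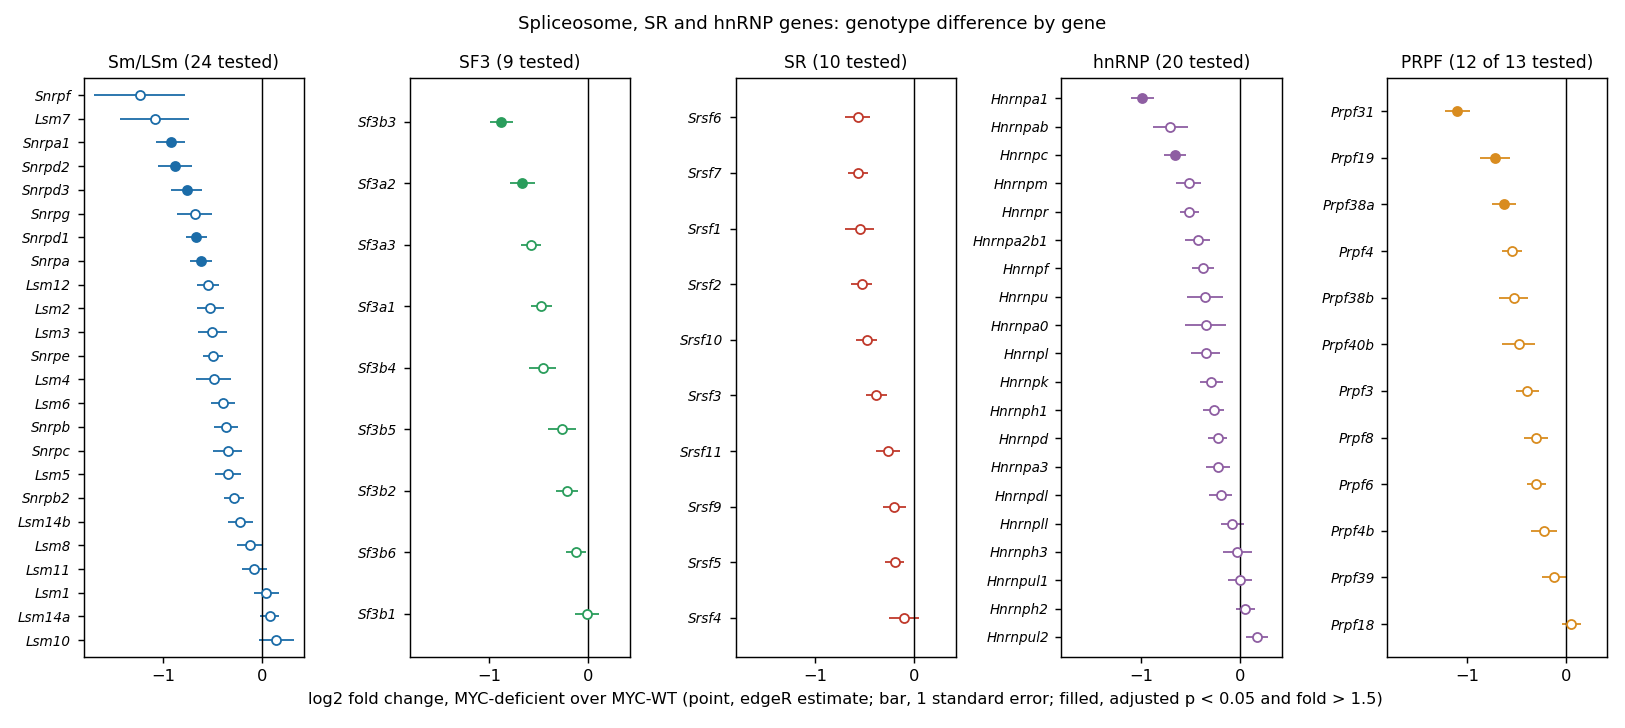
Fitted log2 fold change (MYC-deficient over MYC-WT, x axis) of 75 of the 76 tested genes with its SE as a bar, grouped by family, where 1 PRPF gene is not drawn. Of the 76 values 69 lie below 0 and 7 above, and the 12 called genes are filled points.

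MYC binds CACGTG, so promoter sequence is shown for some of the called genes. For the gene with the largest fitted decrease among the called genes in each family that has one, the 150 bases before the RefSeq start (GRCm38.p6) are given where that start lies within 100 bases of the deposited gene start. This condition left out Snrpa1, Snrpd2 and Snrpd3, and Snrpd1 was not matched to a window, so that Snrpa stands for the Sm/LSm genes. The windows are chr7:27196272-27196421, minus strand (Snrpa), chr8:110846804-110846953, minus strand (Sf3b3), chr15:103240247-103240396, plus strand (Hnrnpa1) and chr7:3629835-3629984, plus strand (Prpf31), each written 5′ to 3′ on the gene's strand, with CACGTG in capitals.
Snrpa: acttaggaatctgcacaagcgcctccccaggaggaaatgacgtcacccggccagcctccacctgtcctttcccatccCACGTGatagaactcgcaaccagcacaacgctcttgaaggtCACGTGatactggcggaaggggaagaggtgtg
Sf3b3: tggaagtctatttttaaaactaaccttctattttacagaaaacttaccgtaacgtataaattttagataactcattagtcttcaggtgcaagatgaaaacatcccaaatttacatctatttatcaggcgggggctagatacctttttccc
Hnrnpa1: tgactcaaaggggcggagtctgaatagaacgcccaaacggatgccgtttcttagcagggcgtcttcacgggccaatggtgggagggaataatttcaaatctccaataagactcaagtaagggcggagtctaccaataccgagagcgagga
Prpf31: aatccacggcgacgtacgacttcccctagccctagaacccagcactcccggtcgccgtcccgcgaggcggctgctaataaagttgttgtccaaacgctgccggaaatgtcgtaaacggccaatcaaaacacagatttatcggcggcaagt
Snrpa held 2 copies, with their first bases at -73 and -32 from the start, and the other windows held none. Their GC content was 57.3%, 33.3%, 51.3% and 56.0% in the same order.

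The share of members with the motif in a promoter window was near that of all tested genes. RefSeq promoter windows, 250 bases before to 50 after the start, were matched for 66 of the 77 genes. The letters CACGTG, which read the same on both strands, occurred in at least 1 window of 9 of 65 tested members with one (13.8%), against 11.8% of all 9845 tested genes with a window and 8.09% of all 27025 genes with one. They occurred in 1 of 11 called members, against 175 of all 1034 genes with a window that were called lower (16.9%), and in 8 of 54 members that were not called. By family they occurred in 5 of 18 hnRNP, 3 of 11 PRPF, 1 of 19 Sm/LSm, 0 of 7 SF3 and 0 of 10 SR genes. Such a match is only a description of the letters. Sites at 4 of the 8 members that were not called are given as examples. They were chosen after their values were seen, and each is written with 10 bases on either side and the motif in capitals.
Hnrnpm: cgttcggggtCACGTGagcgcgcagg
Hnrnpa3: gatagcacatCACGTGgtgactggcc
Prpf39: ttgcgcgcgtCACGTGaccgctgcgc
Hnrnph2: gagagttgctCACGTGaccgagatct
They lie at chr17:33685430-33685455, minus strand, chr2:75659231-75659256, plus strand, chr12:65036281-65036306, plus strand and chrX:134601184-134601209, plus strand (GRCm38.p6), with first motif bases at 13, -18, -43 and 15 from the start. Unlike the starts of the 150-base windows above, these starts did not have to lie within 100 bases of the deposited gene start. The log2 fold changes of the 4 example genes were -0.52, -0.22, -0.12 and 0.06. Those of the uncalled members with the motif that are not shown were -0.48 (Prpf40b), -0.39 (Prpf3), -0.37 (Hnrnpf) and -0.23 (Hnrnpd). Whether the motif went with the size of the difference was not tested.

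The 7 genes of the Sm ring differed in the same direction. All 7 had lower CPM in both MYC-deficient libraries than in either MYC-WT library, with a median log2 fold change of -0.68, and 3 of the 7 were called lower. Among all 24 Sm/LSm genes 5 were called lower and none higher, with a median of -0.49. Over all tested genes 9.91% were called lower, and 35.9% had both MYC-deficient libraries below both MYC-WT libraries. Without MYC-WT replicate 2 no Sm/LSm gene was called, and without MYC-WT replicate 1 there were 3.

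Snrpd2 and Snrpd3 encode SmD2 and SmD3, which join the ring with SmD1 and SmB. Snrpd2 (chr7:19149722-19153542, mm10) measured 58.4 and 72.4 CPM in MYC-WT and 31.9 and 38.2 CPM in MYC-deficient libraries. The log2 fold change was -0.88 (SE 0.17, adjusted p = 0.0277, a 1.83-fold decrease). Snrpd3 (chr10:75517551-75537381) measured 119 and 144 CPM against 70.8 and 81.9 CPM, a log2 fold change of -0.76 (SE 0.15, adjusted p = 0.0295). For both genes replicate 2 was the higher library within each genotype, and the groups did not overlap. Snrpd1 encodes SmD1 and measured 96.0 and 103 CPM against 62.2 and 61.0 CPM, with a log2 fold change of -0.66 (SE 0.10, adjusted p = 0.0171). The adjusted p of Snrpg, which encodes SmG, was 0.0523 at a log2 fold change of -0.68, so it was not called. Snrpe, which encodes SmE, passed the p threshold (adjusted p = 0.0308) with a decrease of 1.41-fold, below the fold required.

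Snrpb, which encodes SmB and its splice variant SmB′, was the most abundant Sm/LSm gene per length, at 143 CPM per kilobase of exon in MYC-WT and 109 in MYC-deficient cells. Its libraries measured 266 and 300 CPM in MYC-WT and 210 and 221 CPM in MYC-deficient cells, without overlap, and its log2 fold change of -0.37 (SE 0.12, adjusted p = 0.0964) did not pass. Snrpf, which encodes SmF, had the lowest fitted value, -1.24, but on 25 and 26 counts in MYC-WT and 8 and 13 counts in MYC-deficient libraries (SE 0.46, adjusted p = 0.122). Of its exon bases 85.4% lie in exons of other genes, including Ccdc38 on the opposite strand, and 89.5% of its 50-base stretches occur in other genes, so its reads cannot be assigned with certainty.

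Of the 4 Snrp genes for proteins specific to the U1 and U2 snRNPs, 2 were called lower, where over all tested genes 9.91% were. Snrpa1 encodes the A-prime protein of the U2 snRNP and measured 68.1 and 84.8 CPM in MYC-WT and 39.5 and 39.8 CPM in MYC-deficient libraries. This was a 1.90-fold decrease (log2 fold change -0.92, SE 0.15, adjusted p = 0.0177), and the largest among the called Sm/LSm genes. Snrpa encodes the A protein of the U1 snRNP and measured 67.5 and 74.0 CPM against 44.8 and 45.9 CPM (log2 fold change -0.62, SE 0.11, adjusted p = 0.0239). Its exons overlap those of BC024978 on the opposite strand over 11.0% of their bases. The U1 gene Snrpc and the U2 gene Snrpb2 had log2 fold changes of -0.35 and -0.28, and neither passed the test.

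The LSm2 to LSm8 genes encode the ring on U6 snRNA. LSm2 to LSm7 also belong, with LSm1 in place of LSm8, to the ring of the cytoplasm that acts in mRNA decay. None of the 7 was called. Their median log2 fold change was -0.49, while DESeq2 and edgeR's likelihood ratio test each called 1. An unadjusted p under 0.05 in the lower direction was found for 6 of the 7, against 20.4% of all tested genes. Lsm4, the most abundant of the ring genes per length, measured 83.7 and 105 CPM in MYC-WT and 59.7 and 72.0 CPM in MYC-deficient libraries (log2 fold change -0.49, SE 0.17, adjusted p = 0.107). The values did not overlap between genotypes. Lsm7 measured 10.6 and 17.9 CPM against 5.28 and 7.91 CPM, with a log2 fold change of -1.09 whose SE of 0.34 was among the widest of the set (adjusted p = 0.0839).

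The 6 LSm genes outside that ring had a median log2 fold change of -0.02. They are Lsm1, Lsm10, Lsm11, Lsm12, Lsm14a and Lsm14b, which act in mRNA decay, histone pre-mRNA processing and cytoplasmic granules among other roles. None was called, and 1 of the 6 had an unadjusted p under 0.05 in the lower direction, against 20.4% of all tested genes. This was Lsm12 (log2 fold change -0.55, adjusted p = 0.0302). Lsm14a, a component of P-bodies, measured 138 and 134 CPM in MYC-WT and 143 and 138 CPM in MYC-deficient libraries (log2 fold change 0.08, adjusted p = 0.601). Lsm10, part of the U7 snRNP of histone mRNA processing, measured 11.1 and 13.2 against 12.3 and 14.1 CPM (log2 fold change 0.14, SE 0.18). The difference between these 6 genes and the U6 ring genes was not tested. It does not separate U6 from mRNA decay, since the 2 rings share LSm2 to LSm7. Lsm8, found only in the U6 ring, had a log2 fold change of -0.13 with overlapping libraries, and Lsm1 one of 0.04.

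**Figure D3:**
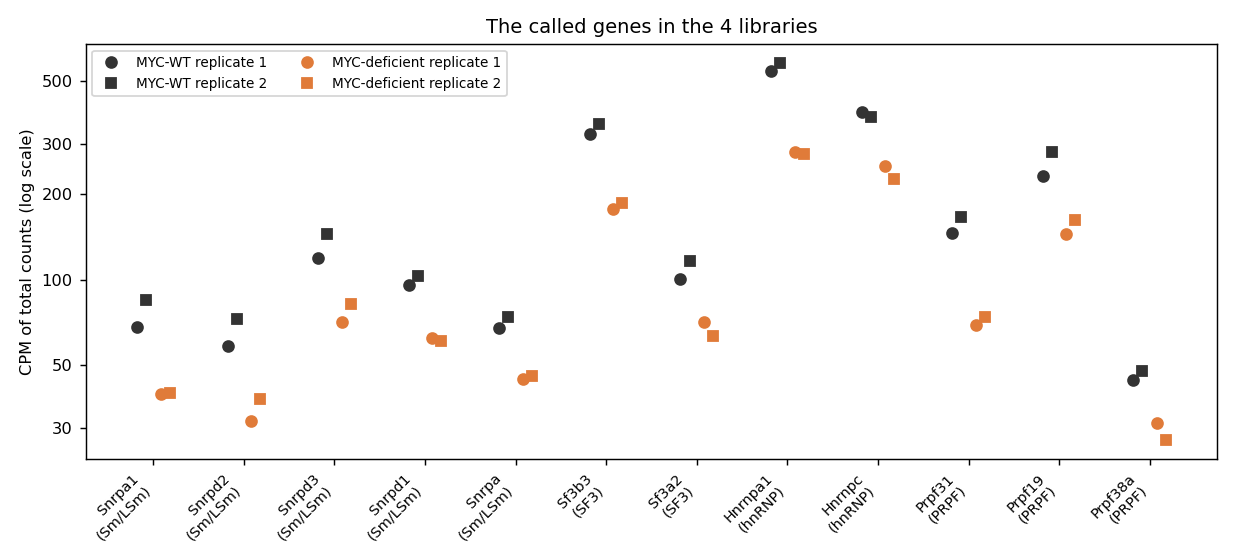
CPM of total counts in each library (y axis, log scale) for the 12 genes called lower in MYC-deficient cells, with the 2 MYC-WT and the 2 MYC-deficient libraries as separate points. In each gene both MYC-deficient points lie below both MYC-WT points, from 280 and 275 CPM against 542 and 578 CPM in Hnrnpa1 to 31.4 and 27.3 against 44.2 and 47.9 CPM in Prpf38a. The genes were called on these same libraries, so the separation is largely set by the selection.

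Sm rings do not form unaided in cells, and several genes of the machinery that loads them were called lower. PRMT5, with WDR77 and pICln (Clns1a), methylates and holds Sm proteins, and the SMN complex of SMN and Gemin proteins closes the ring on snRNA. In a list of 16 assembly genes written from general knowledge, 7 of 15 tested were called lower and none higher, against 9.91% of all tested genes called lower, with a median log2 fold change of -0.54. Gemin5, the subunit that recognises snRNA, measured 99.5 and 105 CPM in MYC-WT and 35.2 and 35.9 CPM in MYC-deficient libraries (log2 fold change -1.50, SE 0.11, adjusted p = 0.00711). Wdr77 measured 48.7 and 47.4 CPM against 17.3 and 17.4 CPM (log2 fold change -1.44, adjusted p = 0.00711), and both replicates of each genotype were close together. Clns1a measured 96.0 and 97.3 CPM against 51.5 and 55.5 CPM (log2 fold change -0.83, adjusted p = 0.0123). Prmt5, the arginine methyltransferase, measured 95.9 and 120 CPM against 42.3 and 48.5 CPM (log2 fold change -1.22, SE 0.16, adjusted p = 0.0131). Gemin6, Strap and Smn1 were also called, and Gemin4 had too few counts for the test. In this list 2 genes were called without MYC-WT replicate 2, in place of 7. Whether this machinery differed from the Sm genes in its response was not tested.

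**Figure D4:**
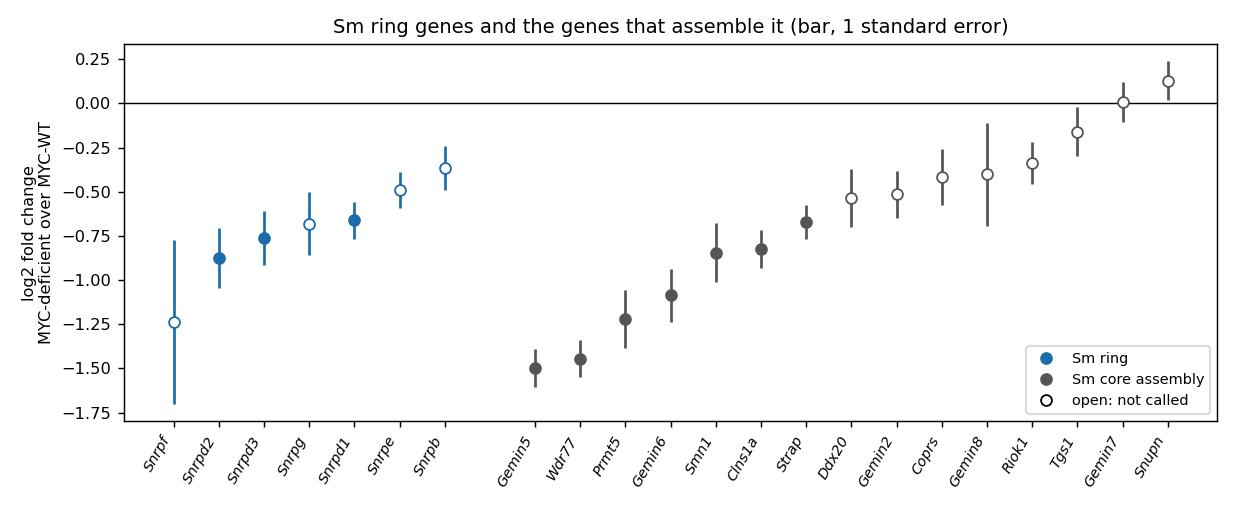
Log2 fold change of MYC-deficient over MYC-WT with its SE (y axis) for the Sm ring genes and for the tested genes of the Sm ring assembly list, with called genes as filled points. Gemin5 and Wdr77 lie lowest, at -1.50 and -1.44, and the Sm ring genes lie between -1.24 (Snrpf) and -0.37 (Snrpb).

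SF3A and SF3B hold the branch point in the U2 snRNP. Of the 9 genes 2 were called lower and none higher, the median log2 fold change was -0.46, and 8 of the 9 had both MYC-deficient libraries below both MYC-WT libraries, where over all tested genes 9.91% were called lower and 35.9% lay below in this way. All 3 SF3A genes passed the p threshold in the lower direction, but only Sf3a2 of them was more than 1.5-fold lower. Of the 6 SF3B genes 1 passed it in that direction, and 12.0% of all tested genes did. No SF3 gene was called without MYC-WT replicate 2, and 1 was without MYC-deficient replicate 2.

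Sf3b3 (chr8:110810239-110846787), an SF3B subunit with a beta-propeller fold, measured 326 and 351 CPM in MYC-WT and 177 and 186 CPM in MYC-deficient libraries. The log2 fold change was -0.88 (SE 0.12, adjusted p = 0.0128). Sf3a2 (chr10:80798198-80804924) measured 100 and 116 CPM against 70.9 and 63.5 CPM, with a log2 fold change of -0.66 (SE 0.13, adjusted p = 0.0273). Its exons overlap Plekhj1 on the opposite strand over 16.1% of their bases. Sf3a3 and Sf3a1 had decreases of 1.49-fold and 1.39-fold with adjusted p of 0.0210 and 0.0369.

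The other SF3B genes differed less. Sf3b1, the HEAT-repeat scaffold of the complex that cradles the branch point helix, measured 451 and 409 CPM in MYC-WT and 448 and 390 CPM in MYC-deficient libraries. These ranges overlap, the log2 fold change was -0.01 (SE 0.12, adjusted p = 0.963), and the sign turned with the scaling, to 0.02 with RLE factors. Sf3b2 measured 343 and 365 CPM against 303 and 298 CPM (log2 fold change -0.21, adjusted p = 0.234). In a list of other genes of the U2 snRNP and the 3′ splice site, 2 of 10 tested were called lower. That is 20.0% against 9.91% of all tested genes. They were U2af1, the small subunit of the U2AF dimer, with -0.64, and Phf5a, a further SF3B component, with -0.63. The other 8 of the list were not called, and the median was -0.48. By adjusted p alone 7 of the 10 were lower and 0 higher, where 12.0% of all tested genes were lower. In all 10 both MYC-deficient libraries lay below both MYC-WT libraries, against 35.9% of all tested genes. With RLE scaling 1 of the 10 was called, and none was without MYC-WT replicate 1, MYC-WT replicate 2 or MYC-deficient replicate 1.

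Among the 13 PRPF genes 3 were called lower and none higher, with a median log2 fold change of -0.39, and in 11 both MYC-deficient libraries lay below both MYC-WT libraries. The shares over all tested genes were 9.91% and 35.9%. Prpf31 (chr7:3629985-3642486), which joins the U4/U6 and U5 particles in the tri-snRNP, measured 146 and 167 CPM in MYC-WT and 69.5 and 73.8 CPM in MYC-deficient libraries. With a log2 fold change of -1.10 (SE 0.12, adjusted p = 0.0100) it was the largest called decrease of the whole set, 2.14-fold, and the only one past 2-fold. Its exons overlap Gm15927 on the opposite strand over 18.1% of their bases. Prpf19 (chr19:10895231-10909559), the ubiquitin ligase of the PRP19 complex, measured 232 and 281 CPM against 145 and 162 CPM (log2 fold change -0.71, SE 0.15, adjusted p = 0.0329). Prpf38a (chr4:108563172-108579336), a protein of the precatalytic spliceosome, measured 44.2 and 47.9 CPM against 31.4 and 27.3 CPM (log2 fold change -0.62, SE 0.12, adjusted p = 0.0285). Without MYC-WT replicate 2 none of the 3 was called, and without MYC-WT replicate 1 only Prpf31 was.

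The abundant core protein Prpf8, which lies at the catalytic centre, measured 540 and 470 CPM in MYC-WT and 422 and 383 CPM in MYC-deficient libraries (log2 fold change -0.30, SE 0.12, adjusted p = 0.152). Its groups did not overlap, and it was not called. Prpf4, a U4/U6 protein, passed the p threshold at 1.46-fold (adjusted p = 0.0238). Prpf38b measured 252 and 217 against 178 and 141 CPM (log2 fold change -0.53, adjusted p = 0.0628). Prpf18, a second-step factor, had a log2 fold change of 0.06 and did not pass. In the U5 and tri-snRNP list 2 of 9 tested genes were called lower, or 22.2% against 9.91% of all tested genes. They were Snu13 with -1.13 and Eftud2, the GTPase of U5, with -0.60. Snu13 binds the kink-turn of U4 snRNA and measured 57.9 and 61.9 CPM against 25.8 and 27.8 CPM (adjusted p = 0.00880). With RLE scaling, with DESeq2 and without MYC-WT replicate 1, 1 of the 9 was called, and none was without MYC-WT replicate 2. Of 21 genes of the activated spliceosome, 1 was called lower, Ppil1 with -0.65. That is 4.76% of the list, against 9.91% of all tested genes, and the list's median was -0.24. In 19 of the 21 both MYC-deficient libraries lay below both MYC-WT libraries, and in 0 both lay above. Over all tested genes 35.9% lay below in this way. None of the 21 was called without MYC-WT replicate 1, MYC-WT replicate 2 or MYC-deficient replicate 1.

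No SR gene was called, although 4 of the 10 tested passed the p threshold without the fold. At an unadjusted p under 0.05, 6 were lower and 0 higher, against 20.4% and 16.0% of all tested genes. DESeq2 and edgeR's likelihood ratio test called 0. In 9 of the 10 both MYC-deficient libraries lay below both MYC-WT libraries, and the median log2 fold change was -0.43. Over all tested genes 12.0% passed the p threshold in the lower direction and 35.9% lay below in this way. Scaling by total counts alone gave 2 calls, and leaving out MYC-deficient replicate 1 gave 3. Srsf6, an SR protein that activates and represses exons, measured 324 and 285 CPM in MYC-WT and 217 and 186 CPM in MYC-deficient libraries (log2 fold change -0.57, SE 0.13, adjusted p = 0.0372), a decrease of 1.48-fold. Srsf1, the founding SR protein, measured 500.4 and 431 CPM against 345 and 281 CPM (log2 fold change -0.55, SE 0.15, adjusted p = 0.0560). The groups of both genes did not overlap. Srsf3, the smallest SR protein, measured 269 and 254 against 209 and 187 CPM (log2 fold change -0.38, adjusted p = 0.0668).

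Srsf7, Srsf2 and Srsf10 also passed the p threshold, with decreases of 1.48-fold, 1.44-fold and 1.39-fold. Of the exon bases of Srsf2 25.3% lie in exons of Mettl23 and Mfsd11. Srsf4 measured 22.1 and 19.6 CPM against 21.2 and 17.0 CPM, which overlap (log2 fold change -0.10, adjusted p = 0.687). Of its exon bases 43.0% lie in exons of Gm12992 on the opposite strand. SR proteins are phosphorylated by SRPK and CLK kinases. In a list of these 1 of 6 tested genes was called lower, or 16.7% against 9.91% of all tested genes. It was Srpk1, with 137 and 137 CPM in MYC-WT and 88.2 and 77.6 CPM in MYC-deficient libraries (log2 fold change -0.70, SE 0.11, adjusted p = 0.0163). The median over the kinases was 0.08, and without MYC-WT replicate 1 or replicate 2 none was called. Of 12 SR-related genes none was called, with 0 called by DESeq2 and 0 by edgeR's likelihood ratio test. Total-count scaling and the fit without a filter each called 1 lower. In this list 6 were lower and 0 higher at an unadjusted p under 0.05, against 20.4% and 16.0% of all tested genes.

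The hnRNP genes took the largest share of counts among the families, 0.784% and 0.755% in MYC-WT cells against 0.610% and 0.562% in MYC-deficient cells. Of the 20, 2 were called lower and none higher, with a median log2 fold change of -0.32. These 2 calls are 10.0% of the family, a share close to the 9.91% of all tested genes called lower. In 14 of the 20 both MYC-deficient libraries lay below both MYC-WT libraries, against 35.9% of all tested genes. Hnrnpa1 (chr15:103240432-103246692), which binds exonic and intronic silencers and acts against SR proteins, measured 542 and 578 CPM in MYC-WT and 280 and 275 CPM in MYC-deficient libraries. This 1.98-fold decrease (log2 fold change -0.98, SE 0.11, adjusted p = 0.0106) was larger than the difference between replicates of either genotype. Of its 50-base stretches 28.2% occur in other genes, Gm10052 among them, so part of its reads could be assigned elsewhere. Hnrnpc (chr14:52073377-52104028), which binds uridine tracts, measured 389 and 374 CPM against 250.0 and 226 CPM (log2 fold change -0.65, SE 0.11, adjusted p = 0.0196). Without MYC-WT replicate 2 neither was called, and without MYC-WT replicate 1, or MYC-deficient replicate 2, 1 of the family was.

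Hnrnpa2b1, at 219 CPM per kilobase of exon the most abundant hnRNP gene per length in MYC-WT cells, measured 1432 and 1445 CPM in MYC-WT and 1046 and 1053 CPM in MYC-deficient libraries. Its replicates were close and the groups did not overlap, but the test did not pass (log2 fold change -0.43, SE 0.12, adjusted p = 0.0687). Its adjusted p was 0.0126 with DESeq2, 0.0338 with edgeR's likelihood ratio test and 0.0258 without the filter on low counts, and from 0.168 to 0.359 with 1 library left out, and its fold stayed under 1.5 in these settings. Hnrnpab was at 401 and 336 CPM against 257 and 188 CPM, with the adjusted p nearest to the threshold (0.0507). Its exons overlap Phykpl on the opposite strand over 29.1% of their bases. Hnrnpu, a nuclear scaffold protein, measured 1007 and 824 against 800.4 and 608 CPM (log2 fold change -0.35, SE 0.18, adjusted p = 0.227). Hnrnpk had a log2 fold change of -0.29. Hnrnpul2, related to Hnrnpu, measured 315 and 283 CPM against 344 and 316 CPM (log2 fold change 0.17, SE 0.11, adjusted p = 0.331), the highest fitted value of the 76. Hnrnpm and Hnrnpr passed the p threshold with decreases of 1.43-fold and 1.42-fold. Among 24 other splicing regulators 2 were called lower, Ptbp1 with -0.67, the polypyrimidine tract binding protein, and Rbfox2 with -1.37. That is 8.33% of the list, against 9.91% of all tested genes called lower. In 15 of the 24 both MYC-deficient libraries lay below both MYC-WT libraries, against 35.9% of all tested genes, and in 1 both lay above. Ptbp1 measured 358 and 394 CPM against 234 and 229 CPM (adjusted p = 0.0207). Neither list member was called without MYC-WT replicate 1 or replicate 2. In 5 exon junction genes none was called, with 0 called by DESeq2 and by edgeR's likelihood ratio test. Of these 5, 2 were lower and 0 higher at an unadjusted p under 0.05, against 20.4% and 16.0% of all tested genes. Leaving out MYC-deficient replicate 2 gave 1 call in that list.

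Of 10 further genes for proteins of particular snRNPs none was called either, and 0 were by DESeq2 and by edgeR's likelihood ratio test. Unadjusted p was under 0.05 for 2 in the lower and 0 in the higher direction, against 20.4% and 16.0% of all tested genes. These 2, Snrnp70 and Snrnp40, also passed the adjusted p threshold (0.0439 and 0.0428), each at 1.41-fold lower, as did 12.0% of all tested genes. The rest were Snrnp25, Snrnp27, Snrnp35, Snrnp48, Snrnp200, Rnpc3, Zcrb1 and Pdcd7, and the median log2 fold change of the list was -0.07. Differences between the families were not tested, and their medians, from -0.49 in Sm/LSm to -0.32 in hnRNP genes, are given as a description.

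Replicates differed in a way that members shared. In the MYC-WT libraries the median log2 ratio of replicate 2 to replicate 1 was 0.152 for Sm/LSm and -0.061 for hnRNP genes, and in the MYC-deficient libraries it was 0.090 and -0.090. Replicate 2 was the higher library in both genotypes for 15 of 24 Sm/LSm genes and the lower in both for 5, while for SR genes it was lower in both for 7 of 10 and for hnRNP genes for 13 of 20. Hnrnpa0 stood far from the others, at 268 and 191 CPM in MYC-WT and 202 and 152 CPM in MYC-deficient libraries, with MYC-WT replicate 2 below MYC-deficient replicate 1. Lsm7 stood far on the other side, with replicate 2 higher in both genotypes.

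**Figure D5:**
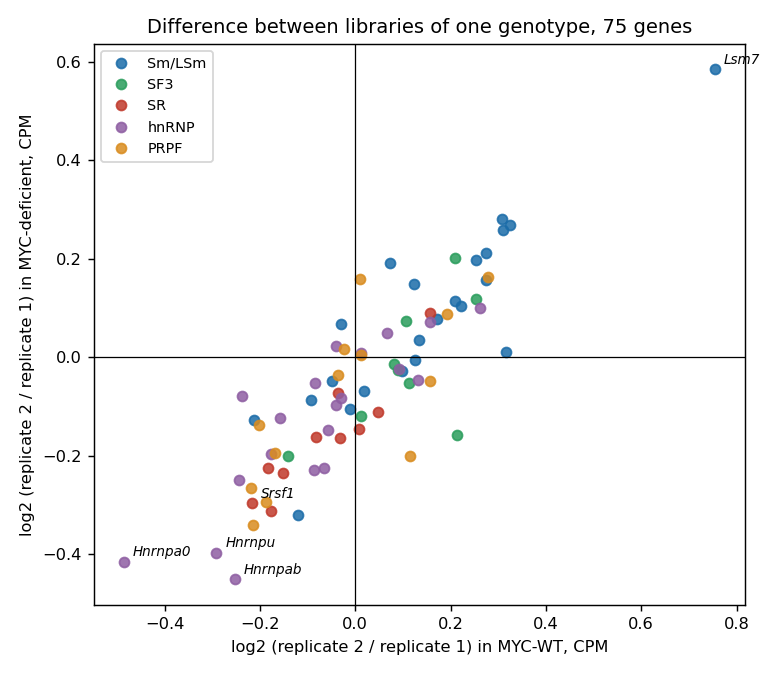
Log2 ratio of replicate 2 to replicate 1 in MYC-WT (x axis) and in MYC-deficient libraries (y axis) for 75 tested genes, coloured by family, with Snrpf left out for its low counts. Sm/LSm genes lie mostly to the upper right, with medians of 0.152 and 0.090, and SR and hnRNP genes mostly to the lower left.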

How the data were processed

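RNA-seq was available for 2 MYC-WT and 2 MYC-deficient libraries. The authors deposited raw counts per gene for 28443 genes on mm10. Among the tools in the submitters' processing notes are STAR 2.7.3a, fastp, bcl2fastq 1.8.4 and edgeR. Which tool counted the reads, with which strand setting and annotation release, is not stated there or in the paper. The authors' filtered table holds the same counts for 11109 genes.

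Here the counts were fitted with edgeR 4.0.16 in R 4.3.3 (TMM, filterByExpr with a minimum count of 10 and total of 15, quasi-likelihood test, 2 residual degrees of freedom, common biological coefficient of variation 0.167). A call needed a Benjamini-Hochberg adjusted p under 0.05 over 13436 genes and a fold over 1.5, the thresholds of the study. The SE was taken as the log2 fold change over the root of its F statistic. CPM are counts per 1000000 total counts. The scripts were tested on simulated data. Alternatives were RLE and total-count scaling, DESeq2 1.42.0, edgeR's likelihood ratio test, no filter on low counts, the genes of the authors' filtered table, a replicate block, other fold thresholds and leaving out each library.

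Genes named with values were Myc and, per family, up to 8 called members by adjusted p, the lowest and highest log2 fold change, and up to 3 uncalled members with most counts, with up to 4 called genes per related list. Lsm7, Snrpg, Snrpe, Hnrnpab, Hnrnpa0 and other members outside this rule were named after their values were seen. The values of 1 PRPF gene are not reported here. The members, lists and tests were chosen with earlier results of these data known. Exon overlap and shared 50-base stretches were taken from GENCODE M21, where 27887 genes have identical coordinates. Of the 76 tested members, 9 had at least 10% of their exon bases in exons of other genes. At least 10% of the 50-base stretches occurred in other genes for 21 of them, and not each of these is marked above.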

Additional observations from a re-analysis of the deposited data

How the results depend on the processing

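No alternative called a member higher. The 12 lower calls held with RLE or total-count scaling, without the filter, on the genes of the authors' filtered table, and with DESeq2, the likelihood ratio test and the replicate block, settings in which 12 to 17 members were called. The replicate block called 16 members, 8 of them Sm/LSm, and 1400 genes higher in all. By adjusted p alone 55 members were lower with the block, in place of 23, and 24.4% of all tested genes in place of 12.0%. Deviations of same-numbered libraries correlated at 0.50 over all tested genes and at 0.80 over 76 members. The sources used here do not say whether libraries with the same number were prepared together. The block was therefore kept as an alternative and not used in the main fit, and whether the 2 pairs are real was not tested. Without the filter 8 Sm/LSm members and 1385 genes higher in all were called, and total-count scaling called 2 SR members. Without a fold threshold 23 members were called, among them 4 SF3, 4 SR and 4 hnRNP genes. A fold over 2 left 1 member, a PRPF gene, with 0 of Sm/LSm, SF3 and hnRNP, and 689 genes lower and 349 higher in all.

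Leaving out each library in turn, where a lone library is assumed to vary like the other genotype's, gave 0 to 16 members lower, with 0 to 7 Sm/LSm and 0 to 3 each of SF3, SR, hnRNP and PRPF genes, and 199 to 1281 genes lower and 65 to 1011 higher in all. The median log2 fold change then ranged from -0.457 to -0.355 over the members, from -0.503 to -0.363 over Sm/LSm, from -0.550 to -0.300 over SF3 and from -0.275 to -0.228 over hnRNP genes. It was -0.345 over the members with RLE scaling and with DESeq2.

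Signs turned only for values near 0. Sf3b1 had a log2 fold change of 0.019 with RLE scaling and with DESeq2. With 1 library left out it ranged from -0.071 to 0.070, Srsf4 from -0.22 to 0.033 and Lsm10 from -2.066e-05 to 0.299. Why these values moved was not tested. With 2 libraries a group, a missed threshold does not show that levels were equal.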
